A study of Homo sapiens with 7 samples.

Results

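Cadherins, vimentin and the transcription factors of the epithelial-mesenchymal transition (EMT) were described by RNA-Seq in 2 esophageal squamous cell carcinoma lines whose TP63, SOX2 or CCAT1 was silenced. The set has 10 genes of the 56236 genes with transcripts in the files, chosen by name: CDH1, CDH2, CDH3, VIM, ZEB1, ZEB2, SNAI1, SNAI2, TWIST1 and TWIST2. All 10 were found. In each cell line, every silenced library was compared with the scramble library of that line.

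Classical cadherins are calcium-dependent adhesion receptors that join neighbouring cells at adherens junctions, with catenins bound to their cytoplasmic tails. CDH1 encodes E-cadherin of epithelia, CDH3 encodes P-cadherin of basal epithelial cells, and CDH2 encodes N-cadherin of neural and mesenchymal cells. VIM encodes vimentin, the intermediate filament protein of mesenchymal cells. ZEB, SNAI and TWIST proteins are DNA-binding factors that can repress CDH1 when epithelial cells take on mesenchymal traits, and SNAI2 is also expressed by basal cells of stratified epithelium.

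TE5 cells carried a non-targeting scramble shRNA or an shRNA against TP63 (shp63-ma), SOX2 (shsox2-1) or CCAT1 (shCCAT1-2), and KYSE140 cells carried the scramble, TP63 or SOX2 shRNA. The hairpins were delivered by lentivirus in a pLKO vector, 1 hairpin per target, and both lines grew in DMEM with 10% fetal bovine serum. Each condition of a line was sequenced as a single library, 7 in total, and within-line differences therefore lack replicates. TP63 and SOX2 are transcription factors of squamous epithelium and CCAT1 is a long non-coding RNA of 8q24. The study silenced them to find the genes they regulate.

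Estimated counts summed to between 68532611 and 98036494 per library. TP63 had 26550 normalized counts in TE5 scramble and 6701 in TE5 shTP63 (25.2%), and 48306 and 12547 in KYSE140. SOX2 was at 39.6% in TE5 shSOX2 but at 76.8% in KYSE140 shSOX2. The CCAT1 transcript, which the annotation lists under the neighbouring CASC19, was at 30.6% in TE5 shCCAT1. Of 10 squamous markers, all were above 0 in every library, with summed levels of 9580 to 19900 TPM (a level scaled for transcript length and library size) in KYSE140 and 1270 to 2180 TPM in TE5. KRT14, a keratin of basal squamous cells, was nearly absent from TE5 scramble, at 0.546 TPM, against 970 TPM in KYSE140 scramble. The scramble library of each line came from a different lane than its silenced libraries, and for TE5 from a different flow cell too. Lane and silencing cannot be told apart where all silenced libraries of a line differ from scramble in the same direction.

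Coordinates are those of GENCODE 44 on hg19. The P-cadherin and E-cadherin genes are neighbours on the plus strand of chromosome 16, with CDH3 (ENSG00000062038) at 68670092 to 68761371 and CDH1 (ENSG00000039068) at 68771195 to 68869440, separated by 9823 bases. CDH2 (ENSG00000170558) lies on chromosome 18, 25512843 to 25757910. VIM (ENSG00000026025) and ZEB1 (ENSG00000148516) are both on chromosome 10, at 17270240 to 17279592 and 31607424 to 31818742. ZEB2 (ENSG00000169554) and TWIST2 (ENSG00000233608) are on chromosome 2, at 145121931 to 145278624 and 239756673 to 239832230. SNAI1 (ENSG00000124216) is at 48599517 to 48605423 of chromosome 20, SNAI2 (ENSG00000019549) at 49830157 to 49834299 of chromosome 8 and TWIST1 (ENSG00000122691) at 19060614 to 19157259 of chromosome 7.

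Both lines combined high cadherin and vimentin levels with 1 abundant EMT factor, SNAI2. In TE5 scramble the order by TPM was CDH3 (393), CDH1 (194), VIM (86.7), SNAI2 (68.0), CDH2 (11.4), TWIST2 (10.2), TWIST1 (7.98), SNAI1 (1.42), ZEB1 (0.246) and ZEB2 (0.0477). In KYSE140 scramble it was CDH1 (203), VIM (167), CDH3 (123), SNAI2 (62.6), CDH2 (4.41), TWIST2 (3.32), TWIST1 (2.77), SNAI1 (0.851), ZEB2 (0.216) and ZEB1 (0.0299). Over the libraries of a line, the TPM ranges of CDH2, TWIST2 and TWIST1 overlapped in both lines, as did those of VIM and SNAI2 in TE5 and of VIM and CDH3, and of ZEB1 and ZEB2, in KYSE140. SNAI2 made up 72.6% to 80.9% of the summed TPM of the 6 EMT factors in the TE5 libraries and 86.9% to 92.5% in the KYSE140 libraries. ZEB1 and ZEB2 were near the limit of detection, with at most 69.1 and 48.1 normalized counts in any library.

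**Figure D1:**
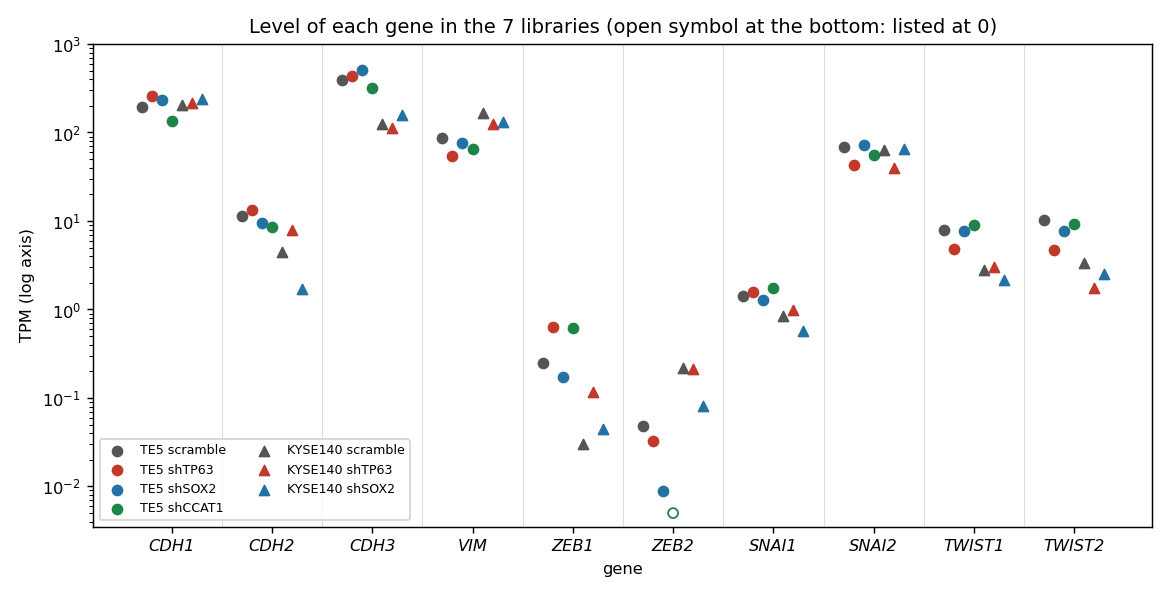
TPM (log axis) of the 10 genes in the 7 libraries, with circles for TE5, triangles for KYSE140 and colours for the shRNA. CDH1, CDH3, VIM and SNAI2 sit above 40 TPM in every library, while ZEB1 and ZEB2 stay below 0.64 TPM and ZEB2 is listed at 0 in TE5 shCCAT1 (open circle).

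The lines differed more from each other than most silenced libraries did from their scramble. CDH3 ranged from 315 to 509 TPM in the 4 TE5 libraries and from 112 to 158 TPM in the 3 KYSE140 libraries. VIM went the other way, with 54.7 to 86.7 TPM in TE5 and 126 to 167 TPM in KYSE140. These ranges did not overlap, and neither did those of CDH2, ZEB1, ZEB2, SNAI1, TWIST1 and TWIST2. CDH1 (135 to 261 TPM in TE5, 203 to 240 TPM in KYSE140) and SNAI2 (42.5 to 71.3 and 40.2 to 65.9 TPM) overlapped between the lines. E-cadherin was thus 60.0% to 64.3% of the summed cadherin TPM of these 3 genes in KYSE140, and P-cadherin 61.1% to 68.7% in TE5.

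In edgeR's quasi-likelihood fit over the scramble, shTP63 and shSOX2 libraries of both lines, 5 of the 10 genes were lower in KYSE140 than in TE5 and 2 were higher at a Benjamini-Hochberg adjusted p under 0.1. Over all 23446 genes tested, 34.3% were lower and 31.8% higher, so a line difference was the usual state of a gene. The log2 difference was -1.60 for CDH3 (SE 0.12), -1.23 for CDH2 (SE 0.30), -3.57 for ZEB1 (SE 0.54), -0.91 for TWIST1 (SE 0.25) and -1.29 for TWIST2 (SE 0.21). It was 1.24 for VIM (SE 0.12) and 2.97 for ZEB2 (SE 0.67). The libraries of a line carry different hairpins and are not replicates of a condition, and these p-values measure only the spread between these libraries.

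For CDH1 and VIM, a single transcript carried nearly all counts. ENST00000261769 held 95.9% to 98.8% of CDH1 counts and ENST00000224237 held 95.9% to 97.5% of VIM counts over the 7 libraries. SNAI1 and TWIST2 each have a single annotated transcript in the files. CDH3 was spread over several transcripts: the coding ENST00000264012 held 43.7% to 59.2% of its counts, the coding ENST00000429102 held 9.0% to 22.3%, and a transcript of the nonsense-mediated decay type, ENST00000542274, held 15.0% to 16.1%, with an equal share on an identical copy, ENST00000581171. For CDH2, the shorter coding transcript ENST00000399380 was at its lowest share in both scramble libraries (18.0% in KYSE140, 21.8% in TE5), against 27.7% to 36.6% in the 5 silenced libraries. Lane and silencing share that direction. For SNAI2, ENST00000396822 ranged from 5.2% (shSOX2) to 19.4% (shTP63) in TE5 and from 8.8% to 12.5% in KYSE140. For TWIST1, the share of ENST00000354571 was 17.4% with scramble and 5.7% with shTP63 in TE5. It was 15.2% in TE5 shSOX2 and 12.3% in TE5 shCCAT1, also under scramble, a direction that lane and silencing share. Shares between overlapping transcripts are estimates of the pseudoalignment, with no replicate. The ZEB1 and ZEB2 counts were scattered over transcripts with at most 68.1 counts each.

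Upon TP63 silencing, SNAI2, TWIST2 and VIM were lower in both lines, CDH1 was slightly higher and CDH3 slightly lower. SNAI2 had 7473 normalized counts in TE5 scramble and 4194 in TE5 shTP63, and 7850 and 4925 in KYSE140. The shSOX2 libraries of the same lanes had 7930 and 9256. The shTP63 library was thus the lowest of its line for SNAI2 in both lines. The log2 fold change was -0.83 in TE5 (95% interval for counting error -0.88 to -0.78) and -0.67 in KYSE140 (-0.73 to -0.62).

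TWIST2 had 582 normalized counts in TE5 scramble and 239 in TE5 shTP63, and 217 and 111 in KYSE140. The other silenced libraries had 446 (TE5 shSOX2), 492 (TE5 shCCAT1) and 184 (KYSE140 shSOX2), all between the shTP63 and scramble values of their line. Scramble was thus the highest library of each line for TWIST2, a direction that lane and silencing share. These shTP63 values gave log2 fold changes of -1.28 in TE5 (-1.49 to -1.08) and -0.96 in KYSE140 (-1.32 to -0.62). Its paralog TWIST1 had 468 and 311 normalized counts in TE5, a log2 fold change of -0.59 (-0.79 to -0.40), and 236.3 and 236.1 in KYSE140.

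VIM had 8237 normalized counts in TE5 scramble and 4671 in TE5 shTP63, and 18131 and 13370 in KYSE140. Its log2 fold change was -0.82 in TE5 (-0.87 to -0.77) and -0.44 in KYSE140 (-0.47 to -0.40), where it became 0.14 without scaling between libraries. Without scaling the median of all genes in that pair was 0.62, and VIM lay 0.48 under it. TE5 scramble was the highest of the TE5 libraries and KYSE140 scramble the highest of the KYSE140 libraries for VIM, a direction that lane and silencing share.

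CDH1 had 45474 normalized counts in TE5 scramble and 58419 in TE5 shTP63 (log2 fold change 0.36, 0.34 to 0.38), and 51944 and 57297 in KYSE140 (0.14, 0.12 to 0.16). CDH3 had 64134 and 59999 in TE5 (-0.10, -0.11 to -0.08) and 20668 and 18625 in KYSE140 (-0.15, -0.18 to -0.12), with a positive sign in both lines without scaling (0.33 and 0.43, each below the median of all genes). CDH2 had 2561 and 2625 in TE5 (0.04, -0.04 to 0.11) and 1159 and 1973 in KYSE140 (0.77, 0.65 to 0.88). E-cadherin thus stayed the dominant cadherin of KYSE140 and N-cadherin stayed at or under 2.32% of the summed cadherin TPM in every library.

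SNAI1 had 122.2 and 122.3 normalized counts in TE5 and 83.8 and 93.7 in KYSE140, within counting error of each other. ZEB1 had 41.2 and 69.1 in TE5 (log2 fold change 0.73, 0.19 to 1.32) and 1.4 and 7.9 in KYSE140, under the minimum of 10 counts. ZEB2 had 2.1 and 8.5 in TE5 and 48.1 and 44.1 in KYSE140, with intervals that span 0 in both lines. In TE5 shTP63, 1 of the 10 genes tested was past a log2 fold change of -1 (TWIST2) and 1 was past 1 (ZEB2), beside 5.68% and 14.7% of 24410 genes. In KYSE140 shTP63, 0 of the 9 tested were past -1 and 0 past 1, beside 4.32% and 8.83% of 21859 genes. In TE5 shTP63 the share of genes past 1 was 30% for genes with a mean under 100 normalized counts, where ZEB2 falls.

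**Figure D2:**
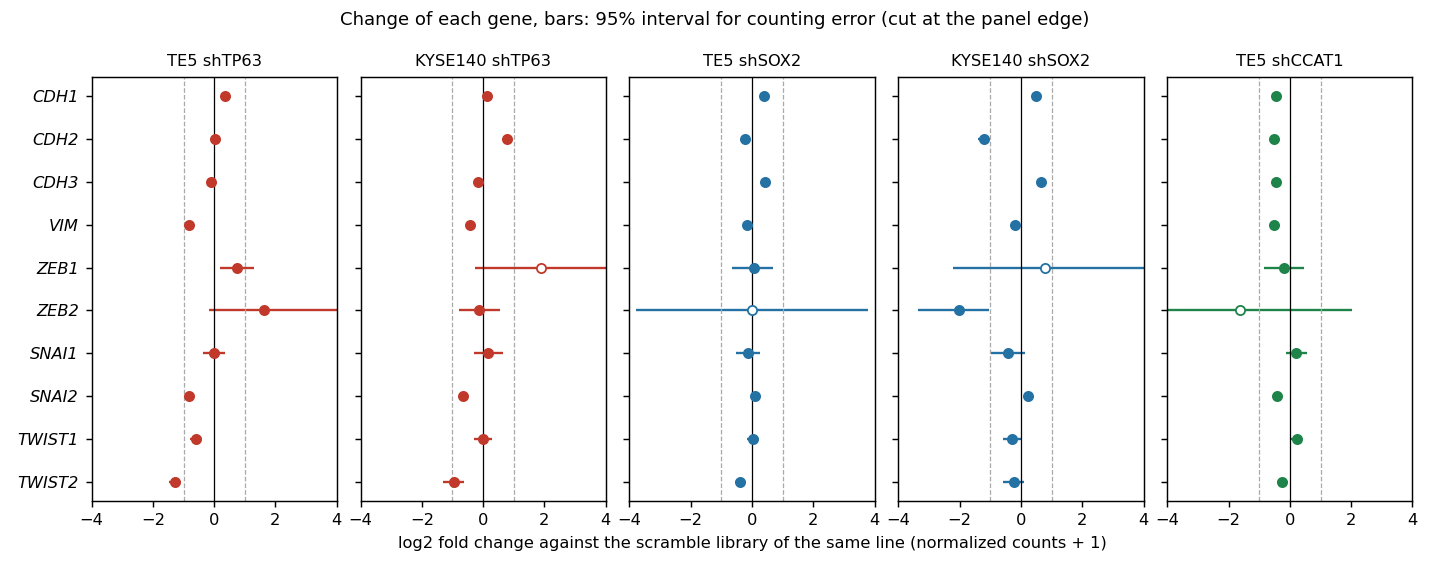
log2 fold change of each gene against the scramble library of its line, in 5 panels (1 per silenced library), with bars for the 95% interval of counting error (ending at the panel edge where wider) and dashed lines at -1 and 1. Open symbols mark genes with under 10 counts in both libraries of the pair. TWIST2 in TE5 shTP63 and CDH2 and ZEB2 in KYSE140 shSOX2 lie past -1, and the wide bars belong to ZEB1 and ZEB2.

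With both lines in the edgeR fit (6 libraries, cell line as block, adjusted p under 0.1), 0 of the 10 genes passed the test upon TP63 silencing in either direction, beside 0.567% of 23446 genes lower and 0.158% higher. At an unadjusted p under 0.05, 3 of the 10 were lower and 0 higher, beside 8.18% and 6.16% of all genes tested. These 3 were SNAI2 (log2 fold change -0.74, SE 0.13, edgeR adjusted p = 0.102), TWIST2 (-1.12, SE 0.26, adjusted p = 0.145) and VIM (-0.61, SE 0.15, adjusted p = 0.156). DESeq2 called the same 3 genes lower and 0 higher, with adjusted p-values of 0.000243, 0.00423 and 0.0136, beside 8.13% lower and 3.03% higher of the 15553 genes to which it gave an adjusted p (ZEB1 and ZEB2 had none). Over 13 alternative settings, 8 called SNAI2, 4 called TWIST2 and 5 called VIM, and the adjusted p ranged up to 1 for each. CDH1 (0.27, SE 0.15, adjusted p = 0.466), CDH3 (-0.11, SE 0.14, adjusted p = 0.775) and CDH2 (0.46, SE 0.36, adjusted p = 0.604) were called under none of the 13, and the sign of CDH2 turned without the KYSE140 shTP63 library (-0.22). In bulk RNA, fewer cells that express a gene and less RNA of it per cell cannot be told apart.

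Squamous markers moved beside these genes. Their summed level was 2180 TPM in TE5 scramble and 1270 TPM in TE5 shTP63, and 14600 and 9580 TPM in KYSE140. The sum was also under scramble in TE5 shSOX2 (1630 TPM) and TE5 shCCAT1 (1530 TPM), a direction that lane and silencing share in TE5. In KYSE140 shSOX2 it was 19900 TPM. The 10 markers include the silenced TP63, at 127 TPM in TE5 scramble and 33.0 TPM in TE5 shTP63. The basal keratin KRT5 went from 71124 to 20311 normalized counts in TE5 shTP63, and had 25587 in TE5 shCCAT1 and 82811 in TE5 shSOX2. What part of the SNAI2, TWIST2 and VIM values goes with the squamous marker levels was not tested.

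Upon SOX2 silencing, CDH1 and CDH3 were higher in both lines. CDH1 had 59577 normalized counts in TE5 shSOX2 and 73588 in KYSE140 shSOX2, log2 fold changes of 0.39 (0.37 to 0.41) and 0.50 (0.48 to 0.52). CDH3 had 86849 in TE5 shSOX2, the highest of the TE5 libraries, and 32263 in KYSE140 shSOX2, the highest of the KYSE140 libraries. Its log2 fold changes were 0.44 (0.42 to 0.45) and 0.64 (0.61 to 0.67). The positive sign of both cadherins held under DESeq2 size factors, without scaling and in TPM.

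CDH2 was lower upon SOX2 silencing, with 2187 normalized counts in TE5 shSOX2 (log2 fold change -0.23, -0.31 to -0.14) and 497 in KYSE140 shSOX2 (-1.22, -1.40 to -1.05). The KYSE140 shSOX2 value was the lowest CDH2 value of the 7 libraries, and the KYSE140 shTP63 library of the same lane had 1973. The ratio of CDH1 to CDH2 TPM was 140 in KYSE140 shSOX2, 45.9 in KYSE140 scramble and 27.7 in KYSE140 shTP63. In TE5 it was 24.3 in shSOX2, 16.9 in scramble and 19.6 in shTP63. The larger CDH2 difference thus stood in the line where the SOX2 transcript itself was at 76.8% of scramble.

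VIM differed little upon SOX2 silencing, with log2 fold changes of -0.16 (-0.21 to -0.12) in TE5 and -0.19 (-0.23 to -0.16) in KYSE140. SNAI2 was at 0.09 (0.04 to 0.13) and 0.24 (0.19 to 0.29), on the other side of 0 from its values upon TP63 silencing. TWIST2 was at -0.38 (-0.57 to -0.20) in TE5 and -0.24 (-0.57 to 0.09) in KYSE140. TWIST1 had 477 and 195 normalized counts and SNAI1 had 111 and 62.4, all within counting error of scramble. ZEB2 was at 22.9% of its 48.1 scramble counts in KYSE140 shSOX2 (-2.03, -3.37 to -1.04, and -0.80 in TPM), and 2.1 in both TE5 libraries. ZEB1 had 42.6 in TE5 shSOX2 and 3.1 in KYSE140 shSOX2.

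In TE5 shSOX2, 0 of the 9 genes tested were past -1 and 0 past 1, beside 4.93% and 6.32% of 22737 genes. In KYSE140 shSOX2, 2 of 9 were past -1 (CDH2 and ZEB2) and 0 past 1, beside 6.33% and 6.95% of 20753 genes. The edgeR fit over both lines called 0 of the 10 genes lower and 0 higher upon SOX2 silencing, beside 0.124% and 0.0171% of 23446 genes. At an unadjusted p under 0.05, 0 were lower and 2 higher, beside 5.09% and 3.83% of all genes tested. These were CDH3 (log2 fold change 0.52, SE 0.14, adjusted p = 0.338) and CDH1 (0.43, SE 0.15, adjusted p = 0.476). DESeq2 called 0 lower and 1 higher, CDH3, at an adjusted p of 0.0787, beside 2.52% and 1.24% of the 16309 genes with an adjusted p. Over 13 alternatives the adjusted p of CDH3 ranged from 0.0599 to 1. SOX2 itself had a log2 fold change of -0.88 (SE 0.22, adjusted p = 0.303) in the edgeR fit. CDH2 (-0.66, SE 0.36, adjusted p = 0.663) passed only without the TE5 shSOX2 library, at -1.45 and an adjusted p of 0.0792. Across its 13 alternatives that p ranged up to 1.

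**Figure D3:**
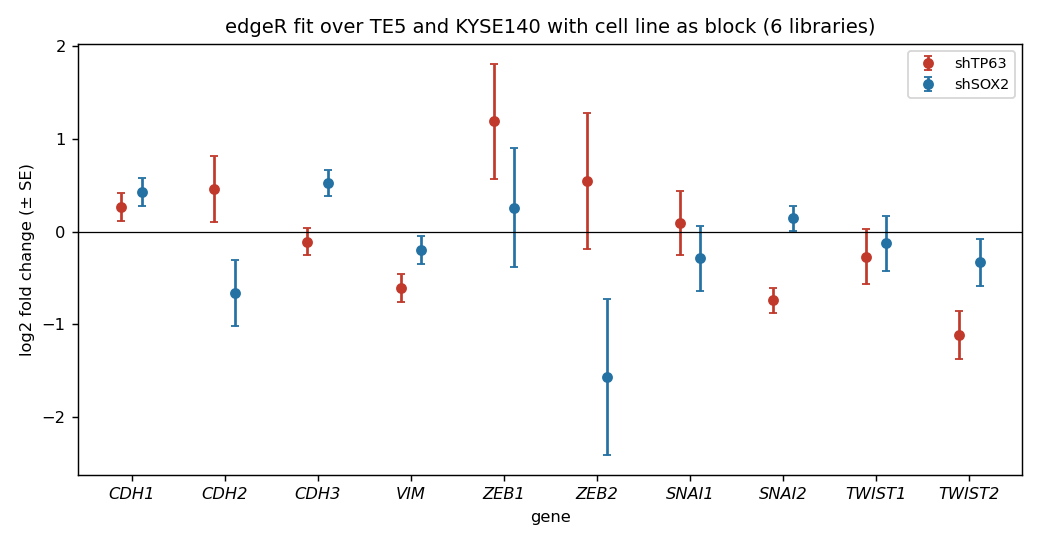
log2 fold change of each gene upon TP63 and SOX2 silencing in the edgeR fit over both lines (6 libraries), with bars for the SE derived from the F statistic. SNAI2, VIM and TWIST2 lie lowest relative to their bars upon TP63 silencing, CDH1 and CDH3 highest upon SOX2 silencing, and 0 of the 10 genes pass the adjusted p of 0.1 in either contrast.

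Upon CCAT1 silencing in TE5, the 3 cadherins, VIM and SNAI2 were lower by similar amounts. CDH1 had 32948 normalized counts (72.5% of scramble), CDH3 47073 (73.4%), CDH2 1773 (69.2%), VIM 5727 (69.5%) and SNAI2 5629 (75.3%). The log2 fold changes ran from -0.53 for CDH2 (-0.61 to -0.45) to -0.41 for SNAI2 (-0.46 to -0.36). Without scaling they ran from -0.14 for CDH2 to -0.02 for SNAI2, beside a median of 0.41 over all genes, so that these genes lay under the median on both scales. The TE5 shCCAT1 value of CDH1 was the lowest of the 7 libraries. Among the silenced TE5 libraries CDH1 thus had its values on both sides of scramble, 58419 and 59577 normalized counts upon TP63 and SOX2 silencing and 32948 upon CCAT1 silencing, all read in the same lane.

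TWIST1 had 547 normalized counts in TE5 shCCAT1, the highest of the 7 libraries (log2 fold change 0.22, 0.05 to 0.40). SNAI1 had 141 (0.21, -0.13 to 0.56), TWIST2 had 492 (-0.24, -0.41 to -0.08, and 0.15 without scaling) and ZEB1 had 36.2 (-0.18, -0.83 to 0.46, and 1.05 in TPM). ZEB2 was listed at 0. Of the 9 genes tested, 0 were past -1 and 0 past 1, beside 6.04% and 11.9% of 24124 genes. Among genes with a mean of 10000 normalized counts or more, as for CDH1 and CDH3, 0.421% were past -1 and the median was -0.22. KYSE140 cells with the CCAT1 shRNA were not analysed here.

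Cadherins act through catenins and alongside nectins at the adherens junction, and 13 such genes were listed. CTNNB1, which encodes beta-catenin, the partner of the cadherin tail, fell upon TP63 silencing in the edgeR fit (log2 fold change -0.78, SE 0.14, adjusted p = 0.0983). It had 23464 normalized counts in TE5 scramble and 12706 in TE5 shTP63, and 35729 and 21884 in KYSE140. The shSOX2 libraries had 25249 and 36373. The call held in 8 of 13 alternatives, with adjusted p-values from 9.65e-05 to 1. CTNNB1 was not called without TE5 scramble, without KYSE140 scramble, without cell line in the fit, with upper quartile scaling or with unassigned transcripts added.

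The other adherens junction genes were not called upon either silencing. VCL, an actin linker, had 25729 and 10368 normalized counts in TE5 scramble and shTP63 (log2 fold change -1.31, -1.34 to -1.28). TE5 shSOX2 had 25774 and TE5 shCCAT1 had 19359. In KYSE140, VCL was at -0.65 upon TP63 silencing and -0.64 upon SOX2 silencing, a direction that lane and silencing share. NECTIN1 was at -1.05 and -0.54 upon TP63 silencing, and at 0.47 and 0.35 upon SOX2 silencing. JUP, or plakoglobin, was at 0.53 in KYSE140 shSOX2 and at -0.65 in TE5 shCCAT1. Of 12 tested in TE5 shTP63, 2 were past -1 and 1 past 1, beside 5.68% and 14.7% of all genes tested. Their median was -0.17 beside 0.06 over all genes. For genes with a mean of 10000 normalized counts or more, as for CTNNB1 and VCL, the median there was -0.16. In KYSE140 shTP63, 0 of 11 were past either limit, beside 4.32% past -1 and 8.83% past 1, with a median of -0.22 beside 0.04. Upon CCAT1 silencing 10 of 11 lay below 0, with a median of -0.41 beside 0.02. That all-gene median was -0.22 among genes with a mean of 10000 normalized counts or more, as for CTNNA1, JUP and NECTIN1. Upon SOX2 silencing the medians of the list were 0.06 in TE5 and 0.03 in KYSE140.

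Among 12 other cadherins, several were present in TE5 and at the floor in KYSE140. CDH6 had 1397 to 2433 normalized counts in the TE5 libraries and 8.6 to 29.2 in KYSE140, and CDH11, of mesenchymal cells, had 307 to 898 against 1.1 to 1.7. CDH4 had 38.8 to 70.1 in TE5 and was listed at 0 in the 3 KYSE140 libraries. CDH5, or VE-cadherin, had 282 normalized counts in TE5 scramble, 362 in shCCAT1, 722 in shSOX2 and 1368 in shTP63, and 0.0 to 1.8 in KYSE140. TE5 scramble was the lowest of the TE5 libraries for CDH5, a direction that lane and silencing share. Its log2 fold change was 2.28 upon TP63 silencing in TE5 (2.09 to 2.47), and in the edgeR fit it was 2.25 with an adjusted p of 0.118. CDH5 is also an endothelial marker, and the other 3 matched endothelial markers stayed low: the 4 together summed to 2.41 TPM in TE5 scramble and 9.32 TPM in TE5 shTP63, of which CDH5 was 1.70 and 8.36.

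CDH11 was lower in each silenced TE5 library than in the scramble library, which was also read in another lane, at log2 fold changes of -1.54 (shTP63), -1.22 (shSOX2) and -1.37 (shCCAT1). CDH13, which lacks the cadherin tail, was at -1.21 in TE5 shTP63, -1.09 in TE5 shCCAT1 and -0.08 in TE5 shSOX2. CDH24 had 16.1 TPM in TE5 scramble, 31.7 TPM in KYSE140 scramble and its log2 fold changes ranged from -0.51 to 0.10.

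Of 21 genes of tight junctions and epithelial polarity, CLDN4, which encodes claudin-4, rose upon TP63 silencing in the edgeR fit (log2 fold change 0.86, SE 0.15, adjusted p = 0.0983). It had 17266 normalized counts in TE5 scramble and 33321 in TE5 shTP63, and 12355 and 20521 in KYSE140. TE5 shSOX2 had 20867, TE5 shCCAT1 had 19041 and KYSE140 shSOX2 had 16340. Scramble was thus the lowest library of each line for CLDN4, a direction that lane and silencing share. Its call held in 8 of 13 alternatives, with adjusted p-values from 0.000496 to 1, and was lost under the same 5 settings as that of CTNNB1. CGN, or cingulin, had 3218 and 9095 normalized counts in TE5 and was at 0.80 in KYSE140 (edgeR adjusted p = 0.128), and TJP3 at 1.78 and 0.39 (adjusted p = 0.22). MAL2, a protein of apical transport, was higher in all 5 silenced libraries, from 0.53 in TE5 shCCAT1 to 2.48 in KYSE140 shSOX2. Lane and silencing share that direction too. EPCAM, an epithelial surface antigen, stayed between -0.14 and 0.13 in the 5 comparisons.

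In TE5 shTP63, 13 of 20 tested junction genes lay above 0, with a median of 0.20 beside 0.06 over all genes, and in KYSE140 shTP63 15 of 21, with 0.19 beside 0.04. The medians were 0.02 and 0.05 in the shSOX2 libraries and -0.02 in TE5 shCCAT1. F11R, a junctional adhesion molecule, was at -1.06 in KYSE140 shSOX2. Of 13 epithelial transcription and splicing factors, none was called by edgeR upon either silencing. Their medians were 0.27 and 0.17 upon TP63 silencing. ZNF750, of squamous differentiation, was at -1.33 and -0.84 upon TP63 silencing and at 0.17 and 1.13 upon SOX2 silencing. OVOL2, a repressor of ZEB1, went from 407 to 182 normalized counts in TE5 shTP63 (-1.16). GRHL3 was at -1.53 in TE5 shCCAT1 and -1.04 in TE5 shSOX2.

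Most listed mesenchymal genes lay above 0 in TE5 shTP63, unlike VIM. There 16 of 23 tested were above 0 (median 0.39 beside 0.06 over all genes), although VIM was at -0.82. Of the 23, 5 were past 1 and 1 past -1, beside 14.7% and 5.68% of all genes tested. For genes with a mean under 100 normalized counts, the all-gene median in TE5 shTP63 was 0.47, with 30% past 1. That median was 0.1 for 100 to 1000 normalized counts, where COL3A1 falls. It was -0.14 for 1000 to 10000 in TE5 shTP63, where VIM and FN1 fall. FN1, or fibronectin, went from 1230 to 2992 normalized counts there, and the collagen COL3A1 from 74.6 to 466, while TNC, or tenascin-C, went from 261 to 78.5. In KYSE140 shTP63 the median was 0.00, and TNC was at -0.74. TNC was thus lower upon TP63 silencing in both lines (edgeR adjusted p = 0.109) and higher upon SOX2 silencing in both, at 1.25 in TE5 and 1.62 in KYSE140 (adjusted p = 0.155).

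Upon SOX2 silencing the mesenchymal medians were 0.29 in TE5 and 0.39 in KYSE140. In TE5, 5 of 23 were past 1 and 1 past -1, beside 6.32% and 4.93% of all genes tested. In KYSE140, 5 of 24 were past 1 and 2 past -1, beside 6.95% and 6.33%. CALD1, an actin-binding protein, went from 207 to 623 normalized counts in KYSE140 shSOX2 (1.58). Upon CCAT1 silencing 19 of 23 lay below 0 (median -0.56 beside 0.02), among them LOXL2, a matrix cross-linking enzyme, at -1.03 and COL6A1 at -0.92. There 6 were past -1 and 1 past 1, beside 6.04% and 11.9% of all genes tested. Of 8 fibroblast markers, 4 to 6 had 10 or more counts, and their summed TPM was 14.6 to 27.6 in TE5 and 34.0 to 45.2 in KYSE140. LUM was at 0 in TE5 shCCAT1 and KYSE140 shTP63. FAP was at 0 in the KYSE140 libraries and COL3A1 in KYSE140 scramble. The 6 fibroblast markers tested in TE5, some of them also in the mesenchymal list, were all above 0 upon TP63 silencing (median 1.19) and upon SOX2 silencing (1.28), some on few counts (DCN had 5.1 in TE5 scramble and 19.4 in TE5 shSOX2). The summed level of the 8 was 16.3 TPM in TE5 scramble, 27.6 TPM in TE5 shTP63 and 16.2 TPM in TE5 shSOX2. The 6 immune markers summed to 49.5 to 118 TPM in TE5 and 4.27 to 16.1 TPM in KYSE140. Single genes carried most of these sums. COL1A1 was 14.8 of 16.3 TPM in TE5 scramble and 32.6 of 34.0 TPM in KYSE140 scramble. CD68 was 68.9 of 69.4 TPM and 9.17 of 11.1 TPM of the immune sums there. Both lines are cultured carcinoma cells, and which cells the marker reads came from was not tested.

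**Figure D4:**
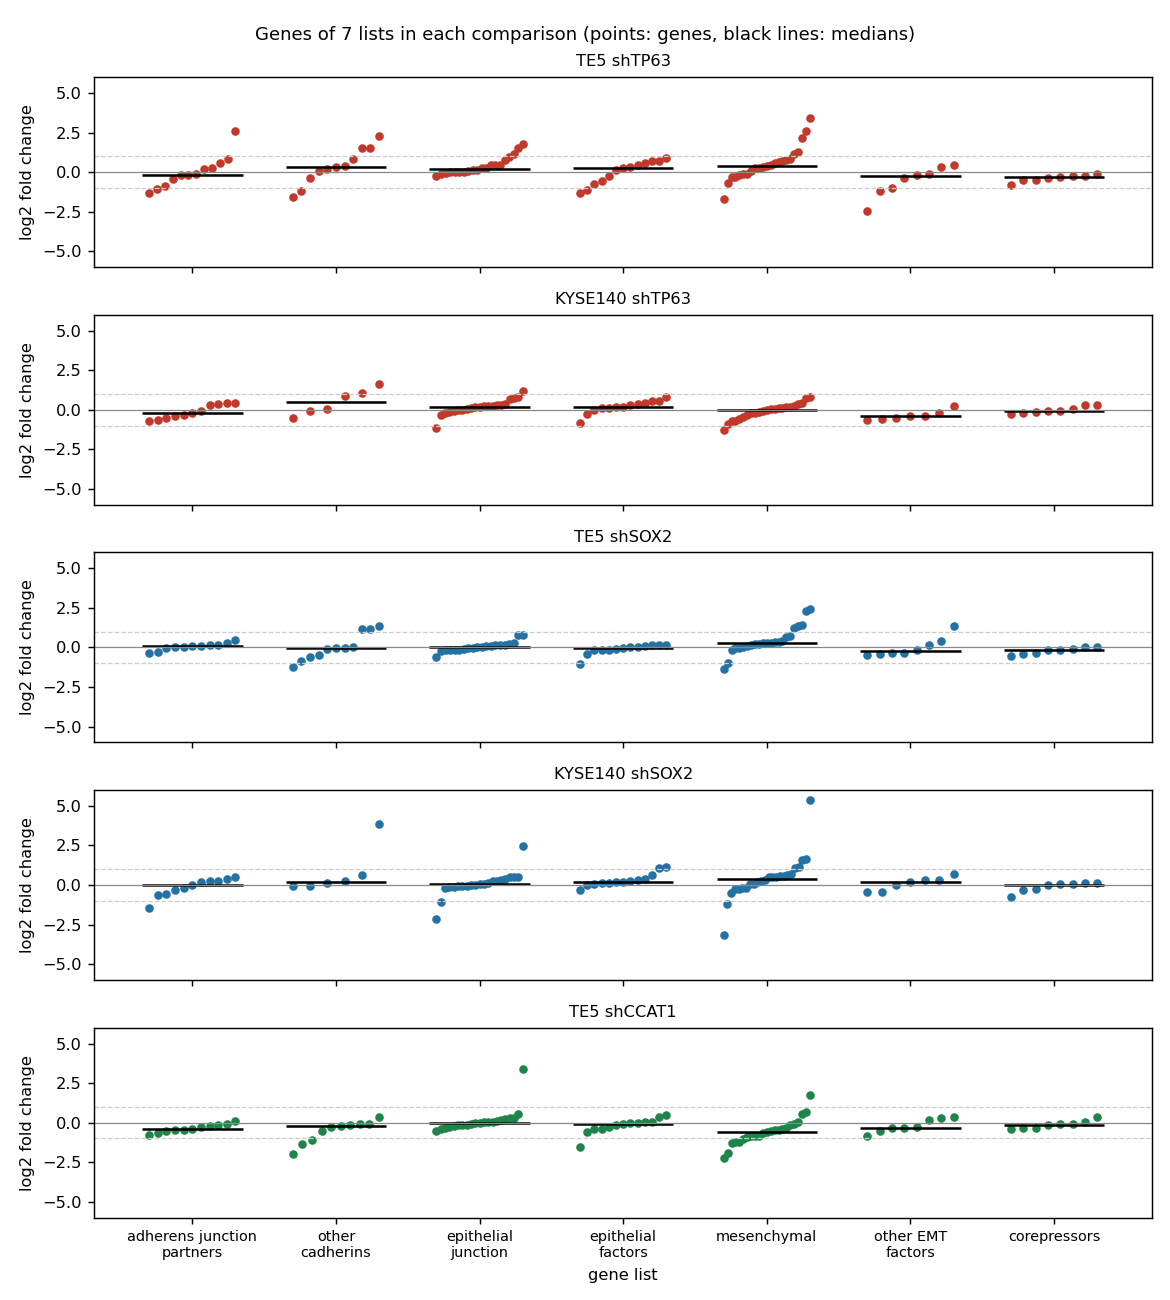
log2 fold change of each tested gene of 7 lists (points, sorted within a list) in the 5 comparisons, with black lines for the list medians and dashed lines at -1 and 1. The mesenchymal median is 0.39 in TE5 shTP63 and KYSE140 shSOX2 and -0.56 in TE5 shCCAT1, and the junction medians stay between -0.02 and 0.20.

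Of 11 further EMT factors 8 were tested in TE5 and 7 in KYSE140, and none passed the edgeR test. TCF4, an E protein, was lower in all 5 silenced libraries, from -1.03 in TE5 shTP63 to -0.46 in the shSOX2 libraries. TCF3, another E protein, was at -1.18 in TE5 shTP63, -0.84 in TE5 shCCAT1, -0.34 in TE5 shSOX2 and -0.18 in KYSE140 shTP63, but at 0.29 in KYSE140 shSOX2. Scramble was thus the highest library of both lines for TCF4 and of TE5 for TCF3, a direction that lane and silencing share. LEF1, which acts with beta-catenin, had 249 normalized counts in TE5 scramble, 45.4 in shTP63 and 649 in shSOX2, a log2 fold change of -2.43 and 1.38. In KYSE140 it had 1295 in scramble, 999 in shTP63 and 1294 in shSOX2. SNAI3, the third SNAI gene, was on opposite sides of 0 in the lines, at -0.64 in KYSE140 and 0.32 in TE5 upon TP63 silencing and at 0.20 and -0.44 upon SOX2 silencing.

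Corepressors that EMT factors recruit were lower in TE5 shTP63 in 8 of 8 cases, with a median of -0.32 and CTBP2 at -0.80. The median of all genes was 0.06. It was -0.14 for a mean of 1000 to 10000 normalized counts and -0.16 above that, the levels of these 8. In TE5 shSOX2 and in TE5 shCCAT1, 6 of 8 were below 0, with medians of -0.16 and -0.13. In KYSE140 shTP63 5 of 8 were below 0, with a median of -0.08 beside 0.04 over all genes. SUZ12, a Polycomb subunit, was at -0.77 in KYSE140 shSOX2. Among other intermediate filament genes, LMNB2 was at -0.75 and -0.50 upon TP63 silencing and at -1.04 in KYSE140 shSOX2. SYNM, which copolymerises with vimentin, went from 38.3 to 450 normalized counts in KYSE140 shTP63 (3.52) but from 3102 to 1298 in TE5 shSOX2 (-1.26). VIM-AS1, antisense to VIM, had 238 and 310 normalized counts in TE5 scramble and shTP63, and 499 and 493 in KYSE140, log2 fold changes of 0.38 and -0.02 where VIM was at -0.82 and -0.44. ZEB1-AS1 had 606.7 and 632.5 in KYSE140, where ZEB1 had 1.4 and 7.9. Whether counting used strand is not given in the sources used here, so that reads of overlapping sense and antisense genes cannot be told apart.

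The genes closest in pattern to each member were taken by Pearson's r of log2(normalized count + 1) over the 7 libraries, among 14940 genes with a mean of at least 100. For CDH1 these were LAMC1 (r = 0.98), GLMP and ARHGAP12. For CDH3 they were RHOBTB2 (0.998), EPAS1 and USP8, for CDH2 MPDZ (0.987), RPL13P5 and ABL1, and for VIM GLUD1 (0.998), DAP3 and TSEN34. For SNAI2 they were FAM114A1 (0.99), GM2A and MED15, and for SNAI1 SPDL1 (0.997), ARL14EP and SUZ12. For TWIST1 they were RNF8 (0.995), RNF6 and BORA, and for TWIST2 NDFIP1 (0.994), KARS1 and PANK2. The 7 points fall into 2 lines, so r mostly reflects line levels for genes that differ between them. RPL13P5 is a processed pseudogene, and its counts may be reads of its parent gene.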

How the data were processed

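RNA-Seq of 7 libraries was analysed. The authors pseudoaligned reads to the hg19 Ensembl transcriptome with kallisto and deposited an estimated count and a TPM value per transcript (kallisto version not given in the sources used here). The submitters' processing notes also name DESeq2. Of 196354 transcripts, 182863 were assigned to genes by GENCODE 44 mapped to hg19. Another 461, with the same length and the same counts in all libraries (above 0 in at least 4) as transcripts of 1 gene, were assigned to that gene, which added 1 transcript to CDH3. The 13030 left (6.16% to 6.4% of counts) were not used in the main fits. That choice followed a first fit that held them as single features and called fewer genes.

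Estimated counts, which the authors deposited unscaled, were summed to genes and scaled with TMM (edgeR 4.0.16, R 4.3.3). Within a line, normalized counts plus 1 were divided by those of scramble and given on the log2 scale, without a p-value. A gene was tested if either library held 10 counts or more, and 1 on the log2 scale was the limit. Intervals (95%, Clopper-Pearson on the 2 counts) cover counting error only. Both lines were fitted in edgeR's quasi-likelihood test on rounded counts, with filterByExpr, cell line as block (the labels pair libraries by line), 2 residual degrees of freedom and a Benjamini-Hochberg adjusted p under 0.1. Each SE of this fit was derived as the absolute log2 fold change over the square root of the F statistic of the test. The script was tested on simulated data. DESeq2 1.42.0 and other filters, scalings, units and libraries were alternatives. Other steps ran in Python 3.11.15 with pandas 2.3.3, numpy 2.4.6 and, for intervals, scipy 1.17.1. TPM values were summed per gene as deposited.

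The genes and lists were chosen with earlier results of these data known. All 10 genes were named in every library. From each list the text draws on up to 4 genes with the largest change and at least 100 normalized counts in the higher library, and any list gene past the adjusted p. FN1, EPCAM, CDH4 and other values given for a named gene in further comparisons were added after their values were seen. FOXC2 and PECAM1 were not matched in the annotation. CCAT1 was read from transcript ENST00000500112. A gene of the mesenchymal list that this rule names is not reported here.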

Additional observations from a re-analysis of the deposited data

How the results depend on the processing

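Over the fits that leave out 1 library, the log2 fold change upon TP63 silencing changed sign for CDH2 (from -0.22 without KYSE140 shTP63 to 0.98 without TE5 shTP63), SNAI1 (from -0.066 without KYSE140 shTP63 to 0.22), ZEB2 (from -0.15 without TE5 scramble to 1.99) and TWIST1 (from -0.66 to 0.061 without TE5 shTP63). Upon SOX2 silencing it did so for ZEB1 (from -0.058 without KYSE140 scramble to 1.48) and TWIST1 (from -0.46 to 0.17 without KYSE140 shSOX2). ZEB2 in TE5 shTP63 turned to -0.15 in TPM. Upon TP63 silencing, the members called lower numbered 3 with DESeq2, 3 without a filter on low counts, 1 with all 7 libraries and 1 with identical copies left unassigned (an alternative chosen after seeing the data), against 0. Leaving out 1 library gave 0 to 3, with 3 without KYSE140 shTP63 or KYSE140 shSOX2. All genes called lower and higher were 133 and 37, with 1264 and 472 by DESeq2, 765 and 438 without the filter, 30 and 9 with upper quartile scaling, 242 and 63 with all 7 libraries, 0 and 0 with unassigned transcripts added, and 0 to 1280 and 0 to 794 without 1 library, with 0 without either scramble library. Upon SOX2 silencing they were 29 and 4, with 411 and 202 by DESeq2, 248 and 136 without the filter, 8 higher with all 7 libraries, 1 and 0 with unassigned transcripts added and 0 to 578 and 0 to 337 without 1 library. Members called upon SOX2 silencing were 1 higher with DESeq2, and 0 to 1 lower and 0 to 1 higher without 1 library. With no replicate block (cell line left out of the model), 0 genes were called lower and 0 higher for either silencing, TP63 included. Between the lines, whose alternatives were chosen after seeing the data, 2 members were called higher in every alternative run, and 5 lower in all but upper quartile scaling, with 6 (SNAI1 added).

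Of the members past 2-fold, in TE5 shTP63 0 were lower and 2 higher without scaling, and 0 were higher with at least 50 counts or a pseudocount of 10. In TE5 shCCAT1 1 was lower with at least 1 count and 1 higher in TPM. In KYSE140 shTP63 1 was higher without scaling and 1 with at least 1 count. In KYSE140 shSOX2 1 was lower with at least 50 counts and 1 in TPM. Without scaling the median of all genes moved to 0.48 (TE5 shTP63), 0.41 (TE5 shCCAT1), 0.62 (KYSE140 shTP63) and 0.22 (KYSE140 shSOX2). The cause of these differences was not tested. Depth limits ZEB1 and ZEB2, and 1 library per condition limits every within-line value.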
